A study of Mus musculus with 10 samples.

Results

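The Hox genes encode homeodomain transcription factors that lie in 4 clusters, A to D, on mouse chromosomes 6, 11, 15 and 2. They were measured here in osteoblastic lineage cells (OBCs), sorted from digested bone of control mice and of mice with a BCR/ABL-driven myeloproliferative disease. Members were all genes named Hoxa, Hoxb, Hoxc or Hoxd plus a number that had a probe set carrying that symbol alone. This gave 37 of the 39 Hox genes listed in RefSeq (assembly GRCm38.p6), out of 19938 genes measured in all. Cluster A held 10 of them and clusters B, C and D held 9 each. The others were not analysed here.

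BA mice carry Scl-tTA::TRE-BCR/ABL, in which the Scl promoter drives the transactivator tTA and tTA switches on BCR/ABL when doxycycline is absent. The Scl promoter is known for its activity in haematopoietic stem and progenitor cells. Control mice were age-matched, and their genotype is not given beyond the word control. Both groups were C57BL/6, both were taken off doxycycline at 5 weeks of age, and bones were harvested 5 to 6 weeks later. Each group had 5 mice, and each mouse gave 1 Affymetrix mouse Gene ST 1.0 array from the amplified RNA of 500 to 2300 sorted cells. For the sort, cells were stained for CD45, CD51, CD31, Sca-1 and a panel of blood lineage antigens.

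Within a cluster the genes are numbered by paralogue group, from 1 at the end used in anterior and early embryonic tissue to 13 at the end used in posterior and distal tissue. A cell therefore carries a set of active Hox genes that reflects where in the body it arose, and skeletal cells of adult bone are known to keep such a positional pattern. Groups 9 and 10 act in the humerus, femur and lumbar region, group 11 in the forearm and shank bones and group 13 in the digits. In blood, Hoxa7, Hoxa9 and Hoxa10 are known as genes of stem and progenitor cells. Hox proteins bind DNA together with cofactors of the PBX and MEIS families.

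The DNA just upstream of a RefSeq start is shown for 4 members picked from the comparison of BA with control cells. None of the 4 passed the adjusted threshold described below. Hoxa3, Hoxb1 and Hoxc4 had the smallest p-values, and Hoxa11 was the member whose control and BA arrays did not overlap. Each line holds the 250 bases before the RefSeq start, 5′ to 3′ on the gene's own strand in GRCm38.p6. The Hoxa3 window lies between the windows of Hoxa6 and Hoxa7 on the chromosome. Hoxa3 is at chr6:52213068-52213317 (minus strand), Hoxa11 at chr6:52245811-52246060 (minus), Hoxb1 at chr11:96365508-96365757 (plus) and Hoxc4 at chr15:103034145-103034394 (plus).
Hoxa3: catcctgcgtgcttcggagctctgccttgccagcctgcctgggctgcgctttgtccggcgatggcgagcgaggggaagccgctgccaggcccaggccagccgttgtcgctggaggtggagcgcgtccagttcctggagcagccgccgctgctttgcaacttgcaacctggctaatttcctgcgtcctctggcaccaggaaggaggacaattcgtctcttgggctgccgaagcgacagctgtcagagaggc
Hoxa11: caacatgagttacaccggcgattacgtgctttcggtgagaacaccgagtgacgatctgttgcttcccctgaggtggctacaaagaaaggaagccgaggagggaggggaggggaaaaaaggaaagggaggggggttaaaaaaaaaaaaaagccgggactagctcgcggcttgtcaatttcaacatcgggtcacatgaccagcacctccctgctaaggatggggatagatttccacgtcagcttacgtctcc
Hoxb1: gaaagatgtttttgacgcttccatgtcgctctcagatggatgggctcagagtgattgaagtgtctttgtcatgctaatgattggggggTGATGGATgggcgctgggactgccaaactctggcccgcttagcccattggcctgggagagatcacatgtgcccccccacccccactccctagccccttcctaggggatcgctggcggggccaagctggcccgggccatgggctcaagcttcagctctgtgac
Hoxc4: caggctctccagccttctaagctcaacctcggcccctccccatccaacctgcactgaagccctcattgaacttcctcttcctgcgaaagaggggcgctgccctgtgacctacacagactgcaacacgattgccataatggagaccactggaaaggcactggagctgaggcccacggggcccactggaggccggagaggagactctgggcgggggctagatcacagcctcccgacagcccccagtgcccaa
Capitals mark a match to TGATNNAT, a sequence bound by PBX and Hox proteins together, searched on both strands along with TATAAA. Of these 4 windows, Hoxb1 held the match. Among 24 windows of 22 Hox genes in the RefSeq promoter table, 4 (16.7%) held TGATNNAT, against 7.69% of all 32841 promoter windows of that length. TATAAA was in 4 Hox windows (16.7%) and in 12.4% of all windows. Hox windows had a median of 13 CG dinucleotides, taken as the upper middle value, against 6 over all windows. A match describes the letters in a window and is not evidence of binding.

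The Hox clusters also hold the miRNA genes of the miR-10 and miR-196 families, the latter known to target Hox messages. Their mature forms are shown from RefSeq, with the seed (bases 2 to 8) in capitals. They fall into 2 seed groups, which are the miR-10 and miR-196 families, and cluster B holds a gene of each.
miR-10a-5p (cluster B): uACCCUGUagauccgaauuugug
miR-10b-5p (cluster D): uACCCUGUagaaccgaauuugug
miR-196a-5p (clusters B and C): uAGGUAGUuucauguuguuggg
miR-196b-5p (cluster A): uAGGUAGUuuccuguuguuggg
The arrays read the genes of these miRNAs and not the mature forms. The log2 level of Mir196a-1 averaged 5.50 in control and 5.09 in BA cells, Mir196a-2 averaged 5.27 and 5.15, and Mir196b averaged 5.96 and 6.00. Mir10a averaged 2.43 and 2.35, and Mir10b 2.46 and 2.41. None of these 5 passed the test described below.

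Values are log2 levels. Probe sets bind with different strength, so levels of different genes cannot be compared directly. Each level was set against a low reference, the 95th percentile of 1196 olfactory and vomeronasal receptor genes on the same array, which are not expected in bone. The reference does not remove differences in binding strength, so counts of members above it carry that limit. This reference lay between 5.94 and 6.29 over the 10 arrays. Array medians over all probe sets were 5.91 to 6.02. The chondrocyte markers listed were all above the reference on every array (8 of 8, mean level 10.8 in control and 10.9 in BA cells), as were 6 of 7 osteoblast markers (9.67 and 9.17). Pan-haematopoietic markers averaged 5.83 to 6.71 on 9 arrays and 8.10 on BA mouse 5.

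Few Hox genes stood clear of the low reference in every mouse. Of the 37 members, 7 (18.9%) were above the low reference on all 10 arrays, 13 on some arrays and 17 (45.9%) on none. Over all genes, 34.1% were above it on all arrays and 33.8% on none, and for the receptor genes themselves the shares were 2.84% and 91.0%. The 7 members were Hoxa4, Hoxa9, Hoxa10, Hoxb1, Hoxb3, Hoxb7 and Hoxd9. Of these, 5 stood in the bottom 25% of all genes by SD within groups. Passing the reference is not by itself evidence of expression in OBCs. On all arrays, 4 of 7 skeletal muscle markers and 1 of 10 endothelial markers passed it too. Between 13 and 17 members passed the reference on any 1 array.

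**Figure D1:**
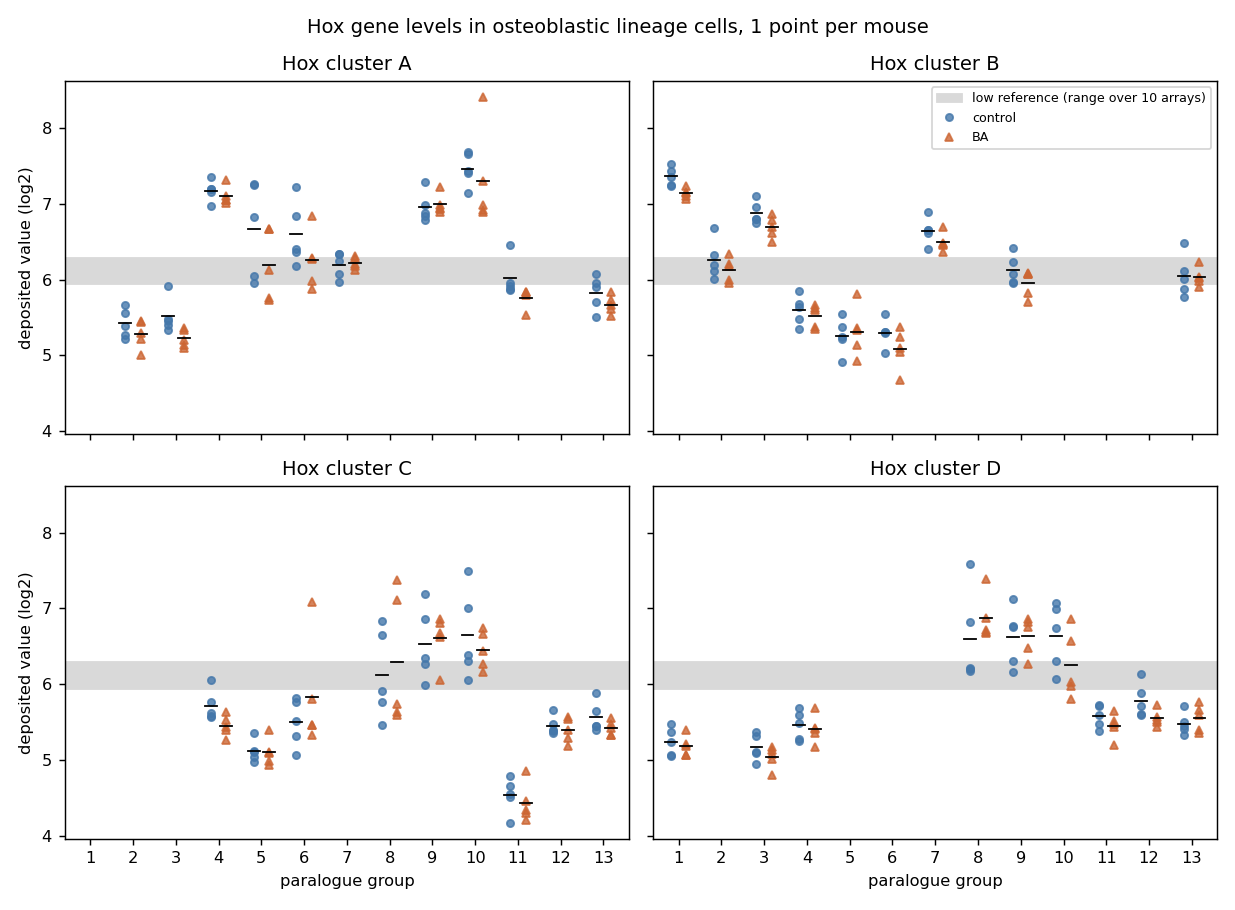
Deposited log2 value (vertical axis) of each measured Hox gene by paralogue group (horizontal axis), with 1 panel per cluster, 1 point per mouse (circles control, triangles BA) and a short line at each group mean. The grey band is the range of the low reference over the 10 arrays, 5.94 to 6.29; Hoxa4, Hoxa9, Hoxa10, Hoxb1, Hoxb3 and Hoxb7 lie above the band in all mice, and the points of Hoxc8, from 5.46 to 7.38, fall on both sides of it.

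By position, the middle of the clusters stood above the low reference more often than the ends. All 11 members of groups 7 to 10 were above it on at least 1 array, against 7 of 17 in groups 1 to 6 and 2 of 9 in groups 11 to 13. This grouping was chosen after the values were seen and is given as a description. By cluster, 3 of 10 members of A, 3 of 9 of B, 0 of 9 of C and 1 of 9 of D were above it on every array, and 3, 3, 5 and 6 members on none.

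In groups 1 to 3, which pattern the hindbrain, pharyngeal arches and neck, Hoxb1 and Hoxb3 were the members above the reference on every array. Hoxb1, known for its role in the hindbrain, read 7.36, 7.25, 7.52, 7.24 and 7.44 in control mice 1 to 5 and 7.15, 7.24, 7.14, 7.10 and 7.06 in BA mice 1 to 5. Its highest BA value equalled its lowest control value. Hoxb3 averaged 6.88 ± 0.15 (SD, n = 5) in control and 6.69 ± 0.14 (n = 5) in BA cells. Hoxb2 averaged 6.26 and 6.13 and passed the reference on 8 of 10 arrays. Hoxa2, Hoxa3, Hoxd1 and Hoxd3 passed it on none.

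In groups 4 to 6, which act in the neck and upper thorax, Hoxa4 was above the reference on every array, at 7.17 ± 0.14 in control and 7.11 ± 0.12 in BA cells (SD, n = 5 each). Hoxa5, which acts in the lung and the cervicothoracic skeleton, read 6.82, 6.05, 5.96, 7.26 and 7.25 in control mice and 5.73, 6.67, 6.67, 6.12 and 5.75 in BA mice. Mice of both groups fell on either side of the reference, 3 of 5 above it in each. Hoxa6 averaged 6.60 in control and 6.25 in BA cells and was above it on 9 of 10 arrays. The other members here were below it on all arrays, except Hoxc6 on BA mouse 4. Hoxc6, a thoracic gene, read 7.08 on that array and 5.06 to 5.82 on the other 9.

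In groups 7 to 10, Hoxa7, Hoxa9 and Hoxa10 come from the cluster known for its role in blood progenitors and limb. Hoxa9 averaged 6.95 ± 0.20 in control and 6.99 ± 0.13 in BA cells. Hoxa10, which acts in the lumbar region and the femur, read 7.14, 7.66, 7.43, 7.69 and 7.41 in control mice and 8.41, 6.89, 6.98, 7.30 and 6.92 in BA mice. BA mouse 1 lay above all others, and the remaining BA mice lay within or below the control range. Its difference was -0.17, and -0.44 without BA mouse 1. On BA mouse 5, the array with the high pan-haematopoietic markers, Hoxa7 was 6.21, Hoxa9 6.98 and Hoxa10 6.92, each within the range of the other BA arrays. Neutrophil markers averaged 9.91 on that array, the highest of the 10 arrays, and haematopoietic progenitor markers 5.88, the lowest. Whether blood cells add to the levels of these Hox genes was not tested. Hoxb7 averaged 6.64 in control and 6.49 in BA cells and was above the reference throughout, while Hoxb9 passed it on 2 of 10 arrays.

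Hoxc8, which acts in the thoracic skeleton, varied most of all members. It read 5.46, 5.77, 6.65, 5.91 and 6.84 in control mice and 7.38, 5.74, 7.11, 5.59 and 5.63 in BA mice. In each group 2 mice were well above the reference and 3 were below it. Hoxc9 and Hoxc10, its neighbours, were both highest among controls in mouse 5 (7.19 and 7.50) and lowest in mouse 3 (5.99 and 6.05), where Hoxc8 was among the high values.

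In cluster D, Hoxd8 read 6.82, 6.20, 7.59, 6.17 and 6.22 in control mice and 6.87, 6.72, 6.69, 6.67 and 7.39 in BA mice. Control mouse 3 and BA mouse 5 were the high arrays of their groups. Hoxd9 averaged 6.62 ± 0.39 in control and 6.64 ± 0.25 in BA cells. Hoxd10 read 6.07, 6.74, 6.99, 7.07 and 6.30 in control mice and 5.98, 6.57, 6.03, 6.86 and 5.80 in BA mice, so the groups overlapped over most of their range.

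In groups 11 to 13, which pattern the forearm and shank, the digits and the tail end, 2 of 9 members passed the reference on any array. Hoxa11 did so on control mouse 1 alone and Hoxb13 on 5 of 10 arrays. Hoxd11, Hoxd12, Hoxd13, Hoxc11, Hoxc12, Hoxc13 and Hoxa13 passed it on none, with control means from 4.53 (Hoxc11) to 5.83 (Hoxa13).

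Members differed in how far they spread between mice. The SD within groups was 0.3 or more for 10 members, namely Hoxa5, Hoxa6, Hoxa10, Hoxc6, Hoxc8, Hoxc9, Hoxc10, Hoxd8, Hoxd9 and Hoxd10, with 0 from cluster B. This limit was set after the values were seen. Among all genes, 7 members stood in the top 25% by SD and 13 in the bottom 25%. The median SD was 0.19 over Hox genes, 0.24 over all genes and 0.19 over receptor genes. Hoxb1 had an SD of 0.098 and Hoxc8 one of 0.749. In bulk RNA from sorted cells, a change in the share of cells with a transcript cannot be told apart from a change in its amount per cell.

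**Figure D2:**
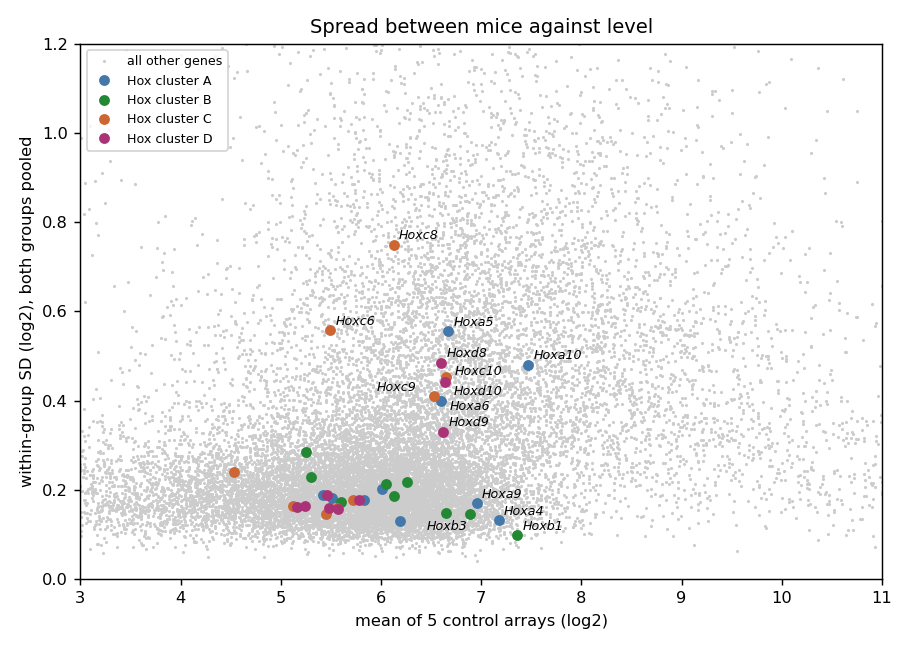
SD within groups in log2 (vertical axis, control and BA pooled) against the mean of 5 control arrays in log2 (horizontal axis), with grey points for other genes and coloured points for Hox genes by cluster; genes beyond the axis limits are not drawn. Hoxc8 (SD 0.749) stands highest among Hox genes and Hoxb1 (0.098) lowest, and the cluster B genes all lie under 0.3.

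**Figure D3:**
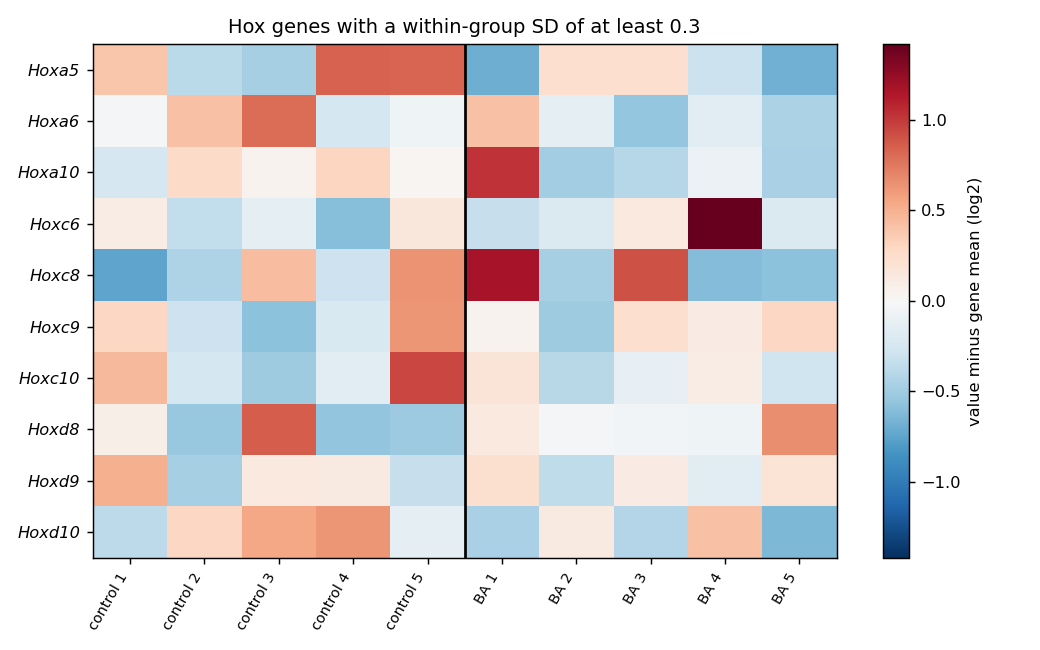
Value minus the gene's mean over 10 arrays (colour, log2) for the 10 Hox genes with an SD of 0.3 or more (rows) in each mouse (columns, control left of the line, BA right). High and low arrays differ from gene to gene, as for Hoxc6 on BA mouse 4 (7.08) and Hoxa10 on BA mouse 1 (8.41).

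Hox levels were then compared between OBCs of diseased BA mice and of control mice. No member passed an adjusted p of 0.05 (limma with Benjamini-Hochberg adjustment over all genes; lowest adjusted p 0.507), and 1 of 19938 genes (0.00502%) did. At an unadjusted limma p under 0.05 there were 3 members (8.11%), Hoxa3, Hoxb1 and Hoxc4, all with lower means in BA cells. Over all genes that share was 9.40%, and 5.27% of all genes were under 0.05 with lower means, so the members' share was near the background. The count was 4 without BA mouse 1 (12.6% of all genes) and 3 without control mouse 3 (7.78%). It was 2 without control mouse 1, 2 or 4 or BA mouse 2, with shares of all genes between 8.30% and 10.6%. The count was 1 without control mouse 5, BA mouse 3 or BA mouse 5, where the share of all genes was 8.23%, 6.79% and 6.99%. It was 0 without BA mouse 4 (7.96% of all genes). It was also 0 with each array centred on its median receptor gene, an alternative added after the data were seen, under which 10.6% of all genes were under 0.05.

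Hoxb1, whose values are given above, averaged 7.36 ± 0.12 in control and 7.14 ± 0.07 in BA cells (SD, n = 5 each), and differed by -0.22 ± 0.09 (SE). Hoxa3, which acts in the neck and thymus, read 5.91, 5.48, 5.40, 5.34 and 5.45 in control mice and 5.36, 5.34, 5.13, 5.20 and 5.09 in BA mice. Control mouse 1 was high, the groups overlapped only between 5.34 and 5.36, and the difference was -0.29 ± 0.12 (SE), or -0.19 without that mouse. Hoxc4 read 5.77, 5.58, 5.56, 5.62 and 6.06 in control mice and 5.40, 5.53, 5.26, 5.43 and 5.63 in BA mice, a difference of -0.27 ± 0.12. BA mouse 5 overlapped the controls for Hoxc4, and both Hoxa3 and Hoxc4 were below the low reference on every array. The adjusted p-values from limma were 0.507 for Hoxb1, 0.508 for Hoxa3 and 0.530 for Hoxc4.

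Hoxa11, which patterns the forearm and shank, was the 1 member (2.70%) whose control and BA arrays did not overlap, against 1.67% of all genes. It read 6.46, 5.96, 5.86, 5.87 and 5.92 in control mice and 5.79, 5.81, 5.83, 5.83 and 5.53 in BA mice. Control mouse 1 stood above the rest, and the gap between the groups was small. The difference was -0.26 ± 0.13 (SE), with an adjusted p of 0.540 from limma. Without control mouse 1 it was -0.14, and with receptor-gene centring -0.12. The number of members with no overlap was 3 without control mouse 4 or BA mouse 5, 2 without BA mouse 2, and 0 with receptor-gene centring. Leaving out an array can only keep or raise such a count, for Hox genes as for all genes. The share of all genes under these settings is not set beside these counts, so they are not read as a trait of Hox genes.

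**Figure D4:**
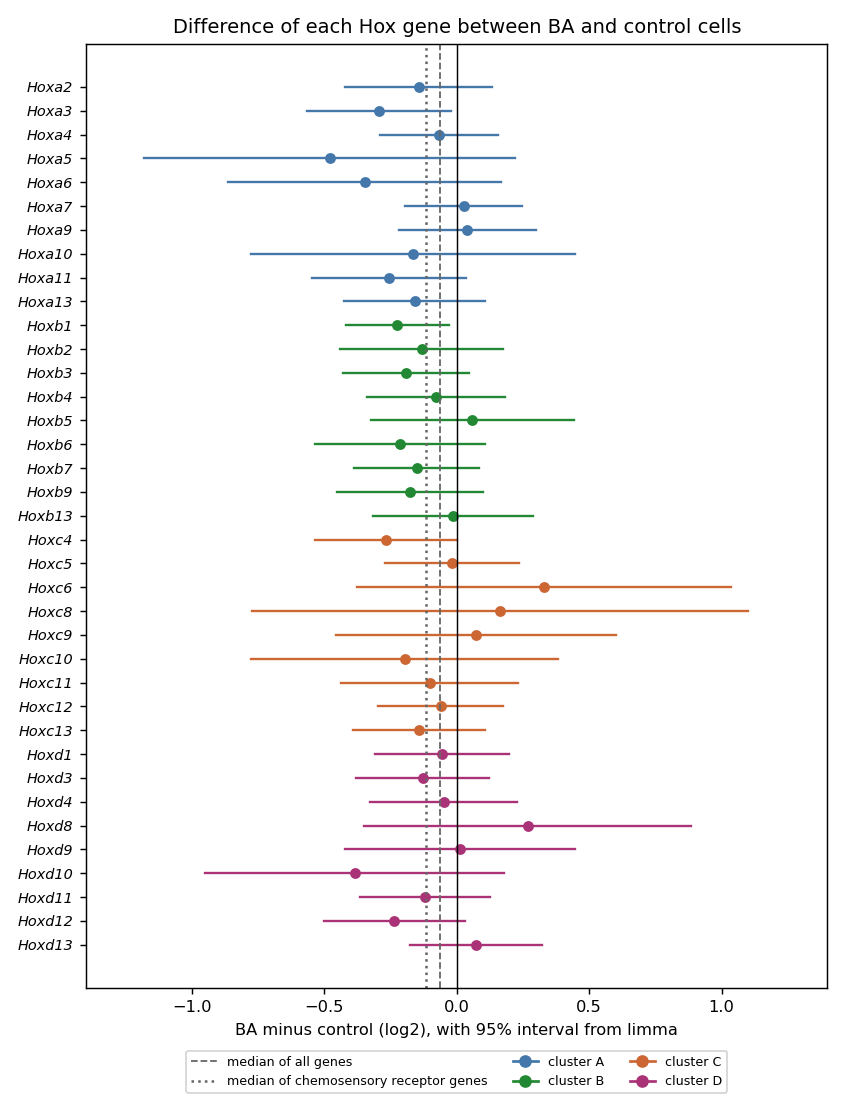
BA minus control in log2 (horizontal axis) for each of the 37 Hox genes (rows, coloured by cluster), with the 95% interval from limma. The dashed and dotted lines are the medians of all genes (-0.06) and of receptor genes (-0.12); the intervals of Hoxa3, Hoxb1 and Hoxc4 end below 0.

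Most intervals were narrow. For 34 of 37 members (91.9%) the 95% interval left out a 2-fold change in either direction, against 81.8% of all genes and 99.2% of receptor genes. The exceptions were Hoxa5 (-0.48, interval -1.18 to 0.22), Hoxc6 (0.33, -0.38 to 1.04) and Hoxc8 (0.16, -0.77 to 1.10). Without BA mouse 4 the difference of Hoxc6 was 0.017, and without BA mouse 1 that of Hoxc8 was -0.11.

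By sign alone, 28 of 37 members (75.7%) had lower means in BA cells, against 62.1% of all genes and 83.5% of receptor genes. The median difference was -0.13 over Hox genes, -0.06 over all genes and -0.12 over receptor genes. By cluster the median was -0.16 in A, -0.15 in B, -0.06 in C and -0.06 in D. By class it was -0.14 for groups 1 to 3 (7 of 7 lower), -0.06 for groups 4 to 8 (9 of 14 lower) and -0.13 for groups 9 to 13 (12 of 16 lower). By level, 15 of the 17 members above the low reference on no array had lower means, with a median difference of -0.12. So had 8 of the 13 above it on some arrays (-0.13) and 5 of the 7 above it on all (-0.15). Without control mouse 5 the median over Hox genes was -0.07.

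The group means of the Hox genes and of the receptor genes were both lower in BA mice. The Hox median per array was 5.91, 5.77, 5.90, 5.87 and 6.13 in control mice and 5.73, 5.81, 5.83, 5.82 and 5.66 in BA mice. The median receptor gene was 4.45, 4.40, 4.47, 4.34 and 4.51 in control mice and 4.40, 4.39, 4.20, 4.26 and 4.21 in BA mice. Control mouse 5 was the highest of all arrays for both medians. Within BA mice, mouse 3 was highest for Hox genes and lowest for receptor genes. BA mouse 5 was lowest for Hox genes and next to lowest for receptor genes. Whether both medians follow a shared shift was not tested. The median receptor gene averaged 4.43 ± 0.07 in control and 4.29 ± 0.10 in BA cells (SD, n = 5 each). With arrays centred on that median, 17 of 37 Hox genes had lower means and the median Hox difference was 0.01, while that of all genes was 0.08. Control mouse 5 gave the highest value for 15 members, and BA mice 3 and 5 gave the lowest for 8 each.

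**Figure D5:**
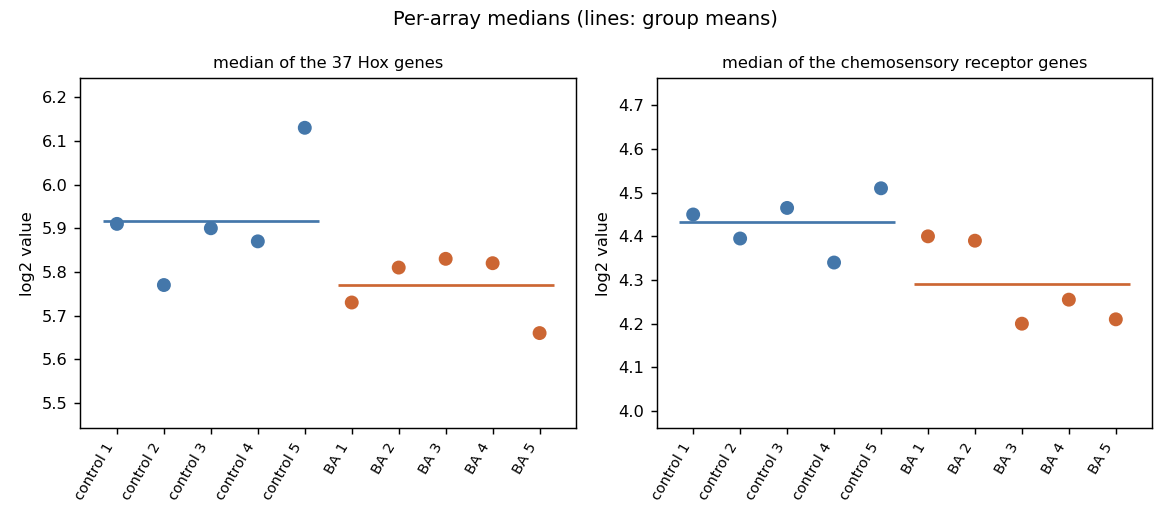
Median log2 value per array (vertical axes, of equal span) of the 37 Hox genes (left) and of the receptor genes of the low reference (right), with 1 point per mouse and lines at group means. Both group means are lower in BA mice, from 5.92 to 5.77 for Hox genes and from 4.43 to 4.29 for receptor genes.

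Levels of cell type markers were not equal in the groups, although 0 of 84 markers passed the adjusted threshold in limma. At an unadjusted limma p under 0.05 there were 17 (20.2%), against 9.40% of all genes. Of 7 osteoblast markers, 5 had lower means and 4 were lower at that level. These were the collagen genes Col1a1 (-1.25) and Col1a2 (-1.16), Phex (-1.12) and Dmp1 (-0.42). Ibsp was nearly equal (-0.01), and Alpl (0.47) and Sp7 (0.03) had higher means. Smooth muscle and pericyte markers averaged 8.39 in control (range 7.83 to 8.83) and 7.46 in BA cells (6.75 to 7.89), with 4 of 7 at an unadjusted limma p under 0.05, all lower. Stromal progenitor markers averaged 8.71 (7.74 to 9.44) and 7.41 (6.38 to 8.03), with 4 of 6 lower at that level. Neutrophil markers averaged 7.45 (6.43 to 8.38) and 8.44 (7.27 to 9.91). All 10 had higher means, 2 of them at an unadjusted limma p under 0.05. Haematopoietic progenitor markers had lower means for 7 of 8 and skeletal muscle markers for 7 of 7, with 2 and 1 under 0.05. Lower means were found for 62.1% of all genes and 83.5% of receptor genes, so these sign counts are not read as a loss of either cell type. With the pan-haematopoietic mean as a covariate, 1 Hox gene was under 0.05, and the share of all genes was 6.88%. The part of the other markers in the Hox differences was not tested.

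Of the PBX and MEIS family cofactors, 8 of 9 listed were measured, 6 with lower and 2 with higher means in BA cells, and 0 passed the adjusted threshold (limma; 1 at an unadjusted p under 0.05). Over all genes, 62.1% had lower means and 9.40% were under 0.05, which is near these counts. The median difference was -0.22. Pknox2 averaged 5.97 ± 0.21 in control and 5.62 ± 0.12 in BA cells (difference -0.35). Meis2 averaged 6.10 ± 0.84 and 5.47 ± 0.24, Pbx2 6.85 ± 0.41 and 6.41 ± 0.28, and Meis1 6.13 ± 0.40 and 5.84 ± 0.35 (SD, n = 5 each). Pbx4 and Meis3 lay above the low reference on every array.

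Genes that mark limb and axial position were measured for 19 of 19 listed, 17 with lower means in BA cells, and 0 passed the adjusted threshold in limma (4 at an unadjusted p under 0.05, 3 of them lower). Lower means were found for 62.1% of all genes and 83.5% of receptor genes, and 9.40% of all genes were under 0.05. Tbx5, the forelimb gene, averaged 5.52 in control and 5.03 in BA cells, and the hindlimb gene Tbx4 5.68 and 5.54, both below the reference on all arrays. Pitx1, a second hindlimb gene, averaged 6.47 and 6.27 and was above it on all. Shox2, which acts in the humerus and femur, ranged from 5.70 to 7.47 in control and from 5.65 to 5.89 in BA cells. Uncx and Pax1, genes of the vertebral column, differed by -0.28 and 0.21.

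Among regulators of Hox chromatin, 0 of 11 measured trithorax-side genes and 0 of 15 Polycomb genes passed the adjusted threshold in limma. Higher means in BA cells were found for 8 of the 11 (median difference 0.22) and 8 of the 15 (0.006). Over all genes, 62.1% had lower means and the median difference was -0.06. Each list had 1 gene at an unadjusted limma p under 0.05, where the share of all genes was 9.40%. Both genes were lower, Men1, which encodes menin (6.91 to 6.40), and Bmi1, of Polycomb complex PRC1 (7.02 to 6.45). Of 12 genes for upstream patterning signals, 0 were under 0.05 before adjustment. Of 12 measured neighbours and non-coding RNAs of the clusters, 11 had lower means and 2 were under 0.05 before adjustment, Haglr (-0.34) and Mir196a-1 (-0.40). Of those 12, 8 were above the low reference on no array, and the shares with lower means were 62.1% over all genes and 83.5% over receptor genes. Among 10 other homeobox genes of bone, Prrx1, a gene of limb mesenchyme, averaged 9.16 ± 0.63 in control and 7.72 ± 1.29 in BA cells (SD, n = 5 each), and 0 passed the adjusted threshold.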

How the data were processed

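RNA levels in OBCs of 10 mice were taken as deposited, as log2 values that the authors made with GCRMA, per the submitters' processing notes, which name no version. The log2 scale was inferred from the range, 1.21 to 13.7. Of 35557 probe sets, 21789 had 1 gene symbol, and only these were used, with the highest-mean probe set per gene. Differences, BA minus control, were tested two-sided by limma 3.58.1 (R 4.3.3; eBayes after lmFit) without covariates or a filter on low values, and adjusted over 19938 genes, with a threshold of 0.05; figures used matplotlib 3.10.9 in Python 3.11.15. The fit was tested on simulated data with 200 changed genes. Members and gene lists were chosen with earlier results of these data known. All measured Hox genes, cofactors, limb or axial genes and osteoblast markers may be named. Of other lists, those past the threshold or up to 4 with the smallest p may be named. Arrays give no depth; their number limits precision. Alternatives are given in the closing section.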

Additional observations from a re-analysis of the deposited data

Results flagged for a closer look

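In 7 of 128 groups of 5 arrays (64 named genes in 2 groups), the extreme array lay far from the other 4 by Dixon's test; chance gives about 5% of groups, or 6.4. Hoxa10 on BA mouse 1 was 8.41, with the other BA mice at 6.89 to 7.30. Hoxc6 on BA mouse 4 was 7.08 (others 5.33 to 5.80), and Hoxd8 on BA mouse 5 was 7.39 (6.67 to 6.87). Hoxa9 on BA mouse 4 was 7.22 (6.89 to 6.98). Hoxa11 stood out in both groups, at 6.46 on control mouse 1 (5.86 to 5.96) and at 5.53 on BA mouse 5 (5.79 to 5.83). Hoxa3 on control mouse 1 was 5.91 (5.34 to 5.48).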

How the results depend on the processing

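The count of Hox genes past the adjusted threshold was 0 under every setting tried, leaving out each array included (0 to 0); the lowest adjusted p of any Hox gene was 0.352. The count at an unadjusted limma p under 0.05 (3 as reported) was 1 among genes above the median gene and 1 among genes above the low reference, filters that each keep 16 of 37 Hox genes and drop Hoxa3, Hoxc4 and Hoxa11 by their level, so that these counts follow from the filter. It was 1 with the pan-haematopoietic covariate, 0 with arrays centred on the median receptor gene (chosen after seeing the data), and 0 to 4 without 1 array. Members with groups apart (1 as reported) were 2 with quantile normalization and 2 with arrays centred on their medians. They were 0 under both filters (16 genes, without Hoxa11), 0 with receptor-gene centring and 1 to 3 without 1 array. The share of all genes is not set beside these counts, and leaving out an array can only keep or raise them. The median Hox difference (-0.13) was 0.013 with receptor-gene centring and -0.15 to -0.07 without 1 array. In all, 19 genes kept their sign under every setting (16 lower, 3 higher). Receptor-gene centring moved the median of all genes from -0.06 to 0.08, and the differences of Hoxa4, Hoxa7 and Hoxb1 to 0.07, 0.17 and -0.08. Under the replicate block the count at an unadjusted limma p under 0.05 was 3 and that past the threshold 0. Same-numbered mice correlated at -0.10 to 0.11, and 2 of 5 correlated best with their own number. These correlations are too few and weak to settle whether the numbers pair the mice.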

Other observations

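The 1 probe set shared by Hoxb7 and Hoxb8 was left out of the comparison. It averaged 5.19 in control and 5.08 in BA cells, with single arrays from 4.86 to 5.38.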
